A study of Mus musculus with 6 samples.

Results

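The meiotic prophase genes described here are 31 genes whose proteins build and use the machinery of the first meiotic division, followed in cells that have not yet entered meiosis. They were chosen by name, and each of the 31 symbols matched 1 Ensembl gene among the 51912 of the count table. The cells were spermatogonial stem cells of C57BL/6J mice at postnatal day 4, sorted from testis as THY1+ and c-KIT-, and their RNA was sequenced with Smart-Seq2, which copies whole transcripts from low RNA input. There were 3 wild type libraries and 3 libraries from Bud31-vKO mice, in which the Cre-loxP system removed Bud31, which encodes a spliceosome protein. The promoter that drives Cre, the exons removed and whether each library came from a separate animal are not given in the labels, so p-values measure the spread between these libraries, which may be technical. Columns of the table are lettered C or T, read here as wild type and Bud31-vKO, and library numbers are those of the columns.

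In mammalian males, germ cells divide by mitosis as spermatogonia and enter meiotic prophase only later in juvenile life. In prophase, cohesin complexes and HORMA domain proteins organise each chromosome along an axis, SPO11 cuts the DNA, DMC1 pairs broken strands with the homologous chromosome, and the synaptonemal complex zips the homologues together while MutS and MutL proteins turn some of the breaks into crossovers. Many of these genes have CpG-rich promoters that are held silent in somatic cells by DNA methylation and by a Polycomb complex, PRC1.6, which contains E2F6, MGA and MAX and recognises E2F sites and E-boxes.

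Total counts ran from 13240704 to 18744466 reads per library, so that 1 CPM (the count relative to library size, scaled by the TMM method) corresponded to between 13.6 and 18.2 reads. Wild type library 3 and Bud31-vKO library 2 stood apart with reads for 13762 and 12464 genes, against 18171 to 22300 genes in the other libraries, and values without them are given beside the members described. Bud31, whose exons overlap Ptcd1 on the opposite strand, stood at 137, 96.4 and 157 CPM in the wild type libraries against 46.8, 67.4 and 79.7 CPM, lower in every column read as the knockout (log2 fold change -1.01, standard error 0.39) and an adjusted p of 0.9997 by edgeR. Of 9 pan-germ-cell markers, 9 reached 1 CPM in each library except Bud31-vKO library 2, where 8 did and 1 had no read. Dazl, an RNA-binding protein of germ cells and 1 of the 9, measured 897 CPM or more in every library. Of the markers of undifferentiated spermatogonia, Gfra1, the receptor subunit of stem cells, was at 43.1 CPM or more. Nanos2, a stem cell RNA-binding protein, had 1 read in wild type library 1 and none in the other libraries. Kit, which the sort selected against, was at 0.348 to 62.7 CPM, and Thy1, which it selected for, is not reported here. Somatic markers were also found after the sort. The summed level of 5 peritubular myoid and stromal markers, led by Col1a1 and Dcn, was 4729 to 10270 CPM, and that of 10 Sertoli cell markers was 123 to 1607 CPM. Whether such cells passed the sort's gate was not tested. In such bulk samples fewer germ cells and less RNA per germ cell cannot be told apart.

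The promoters of several of these genes are shown first, because motifs that the choice of genes did not use were found there in a larger share of the group than of all genes, though in a minority of it. A window from 250 bases before to 50 bases after a RefSeq start on GRCm38.p6 was given for 24 of the 31 genes. The E2F-type motif GCGGGAA, searched on both strands, stood in a window of 10 of these 24 genes (41.7%), against 5.29% of all 27025 genes with a window and 6.84% of 17492 protein-coding genes. The E-box CACGTG, which reads the same on both strands, stood in 7 of 24 (29.2%), against 8.09% of all genes and 8.91% of protein-coding genes. The sequence CNCCTCAG, described at promoters bound by the meiotic initiator STRA8, stood in 6 of 24 (25%), against 9.12% of all genes and 9.86% of protein-coding genes. GCGGGAA and CACGTG each contain a CpG, and the genes compared were not matched for the CpG content of their promoters. Where a gene had several windows, a match in any of them was counted, and a match is a description of the letters and not of a bound factor. The stretches below lie just before the annotated gene, 5′ to 3′ on the gene's strand, with GCGGGAA (or its reverse complement TTCCCGC) and CACGTG in capitals, and were picked to show both motifs, either motif alone, and, in Prdm9, the E2F-type motif in a gene that was barely detected.

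Sycp1 (chr3:102936101-102936260, minus strand): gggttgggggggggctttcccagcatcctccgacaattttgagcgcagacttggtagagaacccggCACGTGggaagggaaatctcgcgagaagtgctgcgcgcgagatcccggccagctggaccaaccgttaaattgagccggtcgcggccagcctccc
Sycp3 (chr10:88459427-88459568, plus strand): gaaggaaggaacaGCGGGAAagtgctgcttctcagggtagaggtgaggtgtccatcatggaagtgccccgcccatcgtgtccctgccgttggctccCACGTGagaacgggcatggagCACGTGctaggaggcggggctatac
Hormad1 (chr3:95559517-95559676, plus strand): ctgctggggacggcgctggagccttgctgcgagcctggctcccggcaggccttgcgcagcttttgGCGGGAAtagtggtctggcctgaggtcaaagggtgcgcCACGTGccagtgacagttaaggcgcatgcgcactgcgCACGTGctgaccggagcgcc
Tex12 (chr9:50561326-50561428, minus strand): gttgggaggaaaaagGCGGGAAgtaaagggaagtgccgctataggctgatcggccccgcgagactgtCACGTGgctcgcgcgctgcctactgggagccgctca
Smc1b (chr15:85131965-85132117, minus strand): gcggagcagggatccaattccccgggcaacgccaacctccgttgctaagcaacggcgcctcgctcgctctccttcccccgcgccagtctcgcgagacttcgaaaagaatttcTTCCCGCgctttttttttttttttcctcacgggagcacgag
Prdm9 (chr17:15564355-15564514, minus strand): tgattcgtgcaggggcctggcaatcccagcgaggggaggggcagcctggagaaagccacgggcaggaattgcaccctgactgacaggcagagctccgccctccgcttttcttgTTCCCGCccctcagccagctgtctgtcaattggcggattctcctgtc

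Matches were found in the windows of genes at high and at low levels. Of the 18 genes with a window that reached 1 CPM in every wild type library, 8 held GCGGGAA and 7 held CACGTG. Syce1 and Sycp2, both well expressed, held neither motif in their windows, as did Dmc1, Mei1, Mei4, Rec8, Mlh3 and Msh4. Brdt held the E-box alone, and Syce2 and Stag3 held both motifs. The remaining GCGGGAA matches were in Meioc, Msh5 and Spata22.

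Most of these genes were already expressed in wild type cells at postnatal day 4. Levels of 1 CPM or more were reached in all 3 wild type libraries by 22 of the 31 genes, against 44.1% of 21870 protein-coding genes and 19.9% of all genes in the table. They are Sycp1, Sycp2, Sycp3, Syce1, Syce2, Tex12, Rec8, Stag3, Smc1b, Hormad1, Mei1, Mei4, Dmc1, Tex15, Msh4, Msh5, Mlh3, Tex11, Terb2, Meioc, Ythdc2 and Brdt. The other 9, Syce3, Rad21l, Hormad2, Spo11, Prdm9, Meiob, Spata22, Majin and Terb1, reached it in 1 or 2 wild type libraries, where 23.4% of protein-coding genes did, and 0 were below it in all 3. Without wild type library 3 the count was 26, with Rad21l, Hormad2, Spo11 and Terb1 added, and at 5 CPM it was 19. Genes of later stages were mixed. Of 8 genes used as markers of pachytene, a later step of prophase, 5 also reached 1 CPM in all 3 wild type libraries, and their summed level was 198 to 471 CPM there. Tex101, a germ cell surface protein, stood at 409, 303 and 117 CPM, Ldhc, a lactate dehydrogenase of the testis, at 27.5, 21.8 and 20.9 CPM, and Piwil1, Hspa2 and Ybx2 at 2.03 to 54.1 CPM, all in wild type libraries. The other 3, Ccna1, Pgk2 and Adam3, had at most 0.361 CPM in any library. Of 14 spermatid genes 1 reached 1 CPM in all 3 wild type libraries and 9 in none, with a summed level of 3.88 to 12.8 CPM over the 6 libraries. Prm1, Prm2 and Tnp2, which package sperm DNA, and Acrv1, a protein of the acrosome, had no reads in any library.

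**Figure D1:**
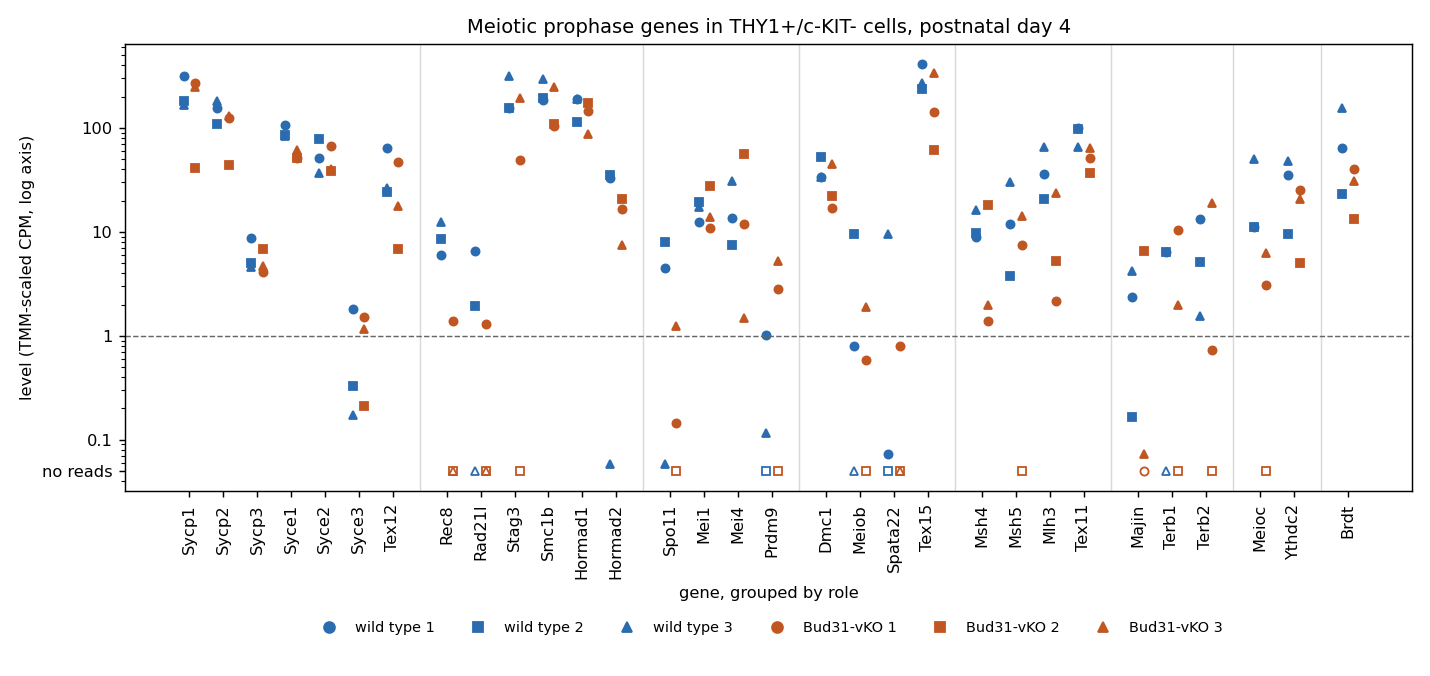
Level of each of the 31 genes in every library, in TMM-scaled CPM on a log axis, with genes grouped by role and grey lines between roles. Blue marks are wild type and orange marks Bud31-vKO, the shape gives the library number, open marks at the bottom are libraries with no reads and the dashed line is 1 CPM. The synaptonemal complex genes other than Syce3 lie above 1 CPM in all 6 libraries, while open marks gather in Bud31-vKO library 2.

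**Figure D2:**
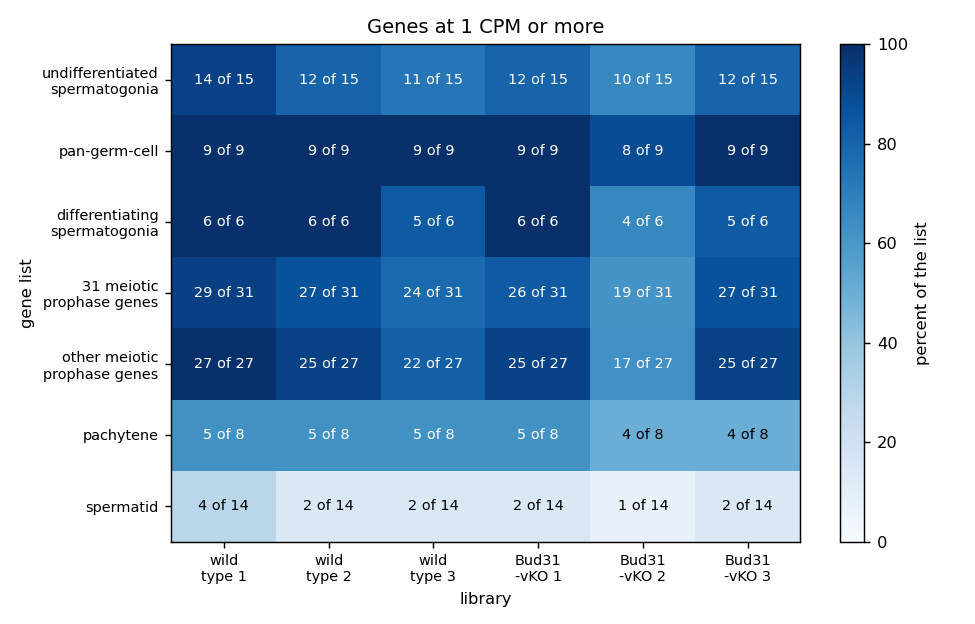
Number of genes at 1 CPM or more in each library (columns) for gene lists of successive germ cell stages (rows), shaded by the percentage of the list. The 31 meiotic prophase genes are at 19 to 29 genes per library, while spermatid genes are at 1 to 4 of 14.

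Synaptonemal complex genes were high for their length. Levels between genes are compared here in TPM, which divides reads by the length of a gene's merged exons. Syce1, a protein of the central element, measured 199 ± 20.98 TPM (SD, n = 3), between the 96.0th and 97.1st percentile of protein-coding genes in each wild type library. Sycp1, the transverse filament that bridges the homologues, measured 197 ± 65.4 TPM, Tex12, a central element protein, 119 ± 64.2 TPM, Syce2, its partner, 88.6 ± 28.9 TPM and Sycp2, a lateral element protein, 80.8 ± 25.6 TPM (SD, n = 3 each). Sycp3, the other lateral element protein and a common marker of prophase, was lower at 15.4 ± 5.003 TPM, from 80 to 122 reads per wild type library, and its exons overlap Chpt1 on the opposite strand. Syce3, a short central element protein, was near the limit of detection with 25, 6 and 3 reads in wild type libraries 1 to 3. The floor of 3 reads lay between 0.165 and 0.220 CPM and covers counting error only.

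Among the axis and cohesin genes, levels split between abundant and scarce partners of the same complexes. Hormad1 (ENSMUSG00000028109, GRCm38 chr3:95559677-95587671), an axis protein that recruits the break machinery, had the highest mean of the 31 genes at 307 ± 92.0 TPM, at the 96.6th to 98.5th percentile of protein-coding genes in the wild type libraries. The cohesin subunits Smc1b and Stag3 measured 181 ± 63.4 and 119 ± 63.3 TPM (SD, n = 3 each). The kleisins that close the meiotic cohesin ring were scarcer, Rec8 at 6.13, 8.90 and 14.96 TPM and Rad21l at 5.16 ± 6.12 TPM (SD, n = 3). Rad21l had 90, 35 and 0 reads in wild type libraries 1 to 3. The order from Hormad1 through Syce1, Sycp1 and Smc1b to Stag3 and Tex12 is one of means. Neighbours in it differ by less than the larger of their SDs, apart from Hormad1 and Syce1.

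Break formation genes were low as a group, and recombination genes ranged widely. Spo11, which cuts the DNA, had 62, 144 and 1 reads in wild type libraries, and Prdm9, the histone methyltransferase that places the cuts, 14, 0 and 2 reads. Mei1 and Mei4, needed for cutting, measured 11.1 ± 2.69 and 13.9 ± 10.9 TPM. Dmc1, the meiotic strand exchange protein, measured 52.2 ± 12.5 TPM and Tex15, a large protein needed for loading strand exchange proteins and for transposon silencing, 101 ± 26.9 TPM (SD, n = 3 each). Meiob and Spata22, which bind single strands as a pair, were each well detected in a single wild type library, Meiob at 9.57 CPM in library 2 and Spata22 at 9.62 CPM in library 3. Spata22 shares exon sequence with the overlapping gene Gm49340 on the same strand, so its count is uncertain. Of the crossover genes, Tex11, on the X chromosome, measured 76.6 ± 11.7 TPM, the MutL protein Mlh3 17.9 ± 11.4 TPM, and the MutS proteins Msh5 and Msh4 9.20 ± 8.70 and 5.50 ± 2.39 TPM (SD, n = 3 each).

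Genes that tether telomeres to the nuclear envelope were scarce and uneven between libraries. Terb2 measured 13.2, 5.17 and 1.56 CPM in wild type libraries 1 to 3, Terb1 6.36, 6.38 and 0 CPM, and Majin 2.38, 0.165 and 4.23 CPM. The RNA regulators of meiotic entry, Ythdc2, a helicase that binds methylated RNA, and its partner Meioc, measured 11.4 ± 7.78 and 17.4 ± 17.5 TPM. Brdt, a bromodomain reader of acetylated histones specific to the testis, measured 52.9 ± 48.5 TPM (SD, n = 3 each). For Meioc and Brdt wild type library 3 was far above the other wild type libraries, at 49.7 and 157 CPM.

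Some meiotic genes stood above their somatic paralogs and others far below. Smc1b was above Smc1a, the mitotic subunit, in all 3 wild type libraries, by 2.002 to 11.4 times in TPM, and Stag3 was above Stag1 by 2.04 to 3.50 times and above Stag2 by 3.36 to 10.9 times. Rec8 was at 0.0176 to 0.0596 times the level of Rad21, the mitotic kleisin, at 253 ± 93.7 TPM (SD, n = 3). Msh5 stood at 0.0229 to 0.0913 times Msh6. Somatic cells, whose markers were found in the samples, can also express the somatic paralogs, and their part in these ratios was not tested.

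**Figure D3:**
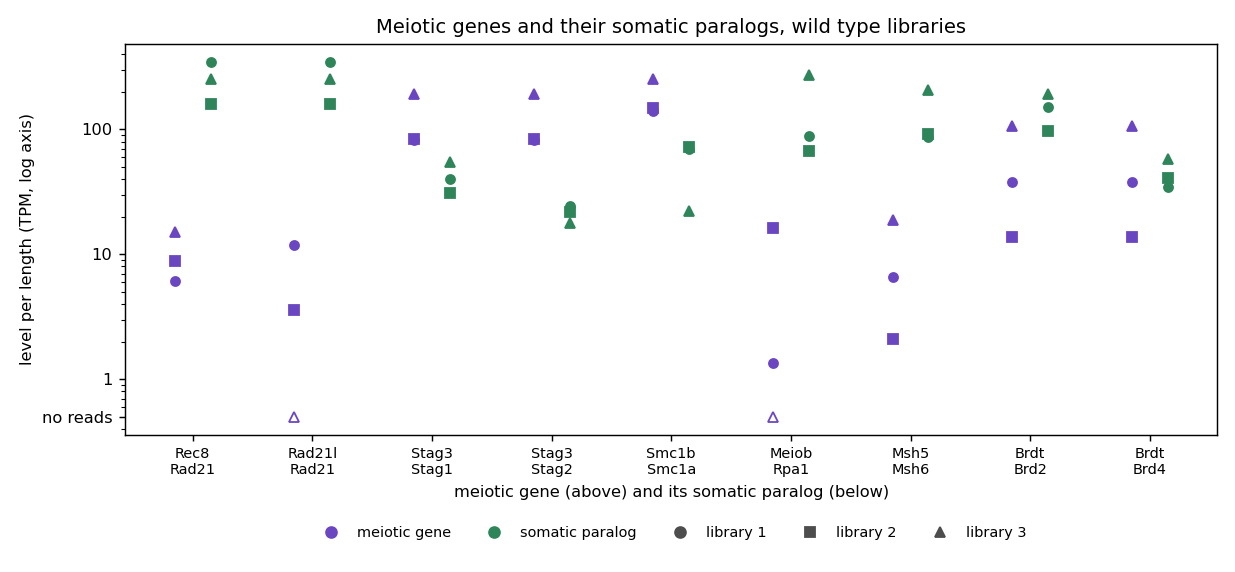
Level per length in TPM, on a log axis, of meiotic genes (purple) and their somatic paralogs (green) in the 3 wild type libraries, with the shape giving the library and open marks standing for no reads. Smc1b and Stag3 lie above their paralogs in every library, and Rec8, Rad21l, Meiob and Msh5 lie below theirs.

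The comparison of genotypes asked whether this early expression differed when Bud31 was deleted. No gene of the group passed edgeR's quasi-likelihood test over the 15240 genes tested, of which 0% were called higher and 0% lower, and the adjusted p was 0.9997 for each of the 30 members tested. At an unadjusted p under 0.05 there were 0 of 30, against 1.08% of all genes higher and 1.82% lower, and DESeq2 and limma-voom also called 0 members. DESeq2 called 0.112% of all genes higher and 0.197% lower, and gave Msh4 no p-value. Spata22 was below the filter on low counts. The spread between libraries was wide, with a common biological coefficient of variation of 119% by edgeR.

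Fold changes of the members nevertheless lay mostly below 0. Of the 30 tested, 26 had a log2 fold change below 0, against 48.9% of all genes tested, and 4 lay above, against 51.1%. Their median was -0.65, against 0.02 for all genes. The count below 0 was 24 with RLE scaling or by DESeq2 and 27 by limma-voom. Other germ cell lists lay mostly below 0 too: 7 of 9 pan-germ-cell markers (median -0.81) and 6 of 6 differentiating spermatogonia markers (median -0.97). Of the 12 undifferentiated spermatogonia markers tested, 9 did (median -0.27). The members' median was -0.54 without library 3 of wild type, -0.48 without library 2 of Bud31-vKO, -1.01 when library 3 of Bud31-vKO was left out and -0.42 in the 2 libraries of each genotype with the most genes detected. Genes whose Bud31-vKO libraries all lay below the wild type libraries were Syce1, Rec8, Tex11 and Meioc, 4 of 30, against 6.4% of all genes tested. No member lay wholly above, against 4.78% of all genes.

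**Figure D4:**
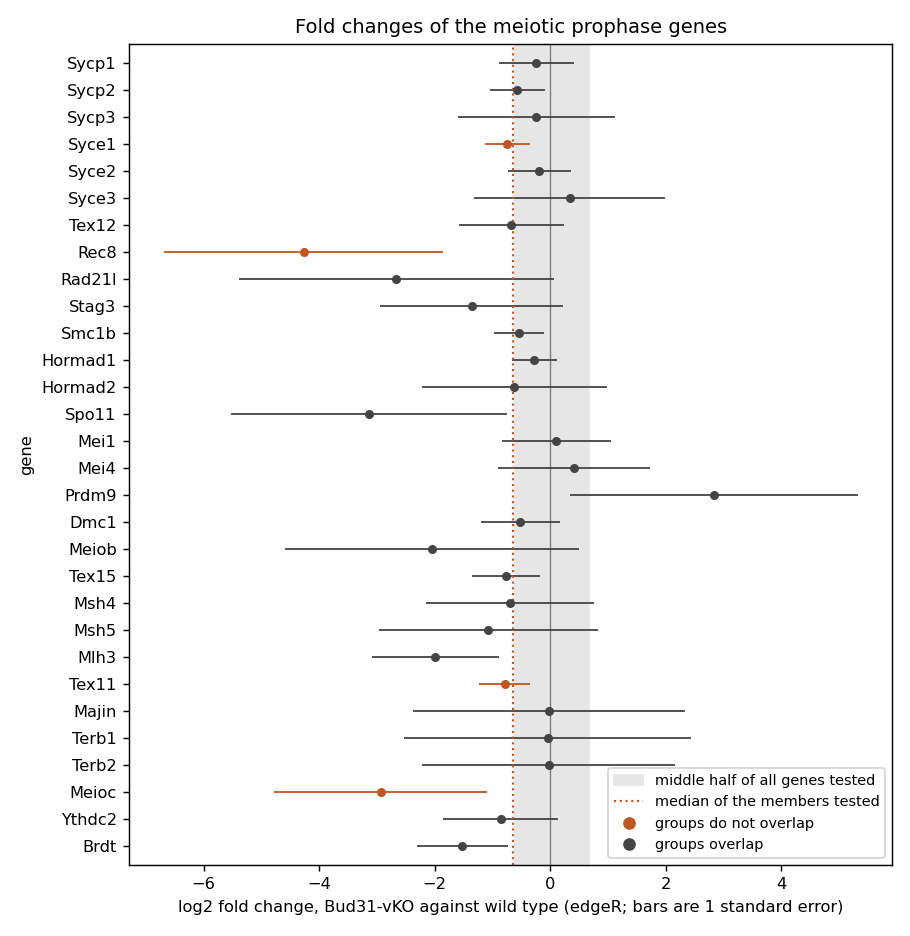
Log2 fold change of the 30 genes tested, Bud31-vKO against wild type, with bars of 1 standard error by edgeR. Orange points are genes whose groups do not overlap, the grey band is the middle range (lower to upper quartile) of all genes tested and the dotted line is the members' median of -0.65. The points of Rec8, Spo11 and Meioc lie farthest to the left, with wide bars.

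Syce1 (ENSMUSG00000025480, chr7:140777229-140787852) and Tex11 (ENSMUSG00000009670, chrX:100838648-101059667) were the well-expressed genes without overlap. Syce1 measured 106, 84.7 and 83.6 CPM in the 3 wild type libraries, against 51.2, 50.9 and 61.6 CPM in the Bud31-vKO libraries, a log2 fold change of -0.74 with a standard error of 0.39. The libraries of each genotype lay close together, and the change ranged from -0.84 to -0.62 with each library left out in turn. Tex11 stood at 101, 97.2 and 65.6 CPM in wild type libraries, against 50.8, 36.5 and 64.8 CPM, a log2 fold change of -0.79 with a standard error of 0.44. Here wild type library 3 and Bud31-vKO library 3 nearly touched, and the value was -0.95 without the former and -0.59 without Bud31-vKO library 2.

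Rec8 (ENSMUSG00000002324, chr14:55618037-55625395) and Meioc (ENSMUSG00000051455, chr11:102663716-102682237) had larger fold changes from few reads. Rec8 had 82, 155 and 217 reads in wild type libraries and 19, 0 and 0 reads in Bud31-vKO libraries, or 5.93, 8.52 and 12.6 CPM against 1.38, 0 and 0 CPM, a log2 fold change of -4.27 with a standard error of 2.42. Its reads in Bud31-vKO came from library 1 alone, and its unadjusted p was 0.117 by edgeR. The Rec8 value was -3.94 without library 3 of wild type and -3.68 without library 2 of Bud31-vKO. Meioc stood at 11.1, 11.1 and 49.7 CPM in wild type libraries, against 3.11, 0 and 6.23 CPM, a log2 fold change of -2.94 with a standard error of 1.85. Without wild type library 3 the Meioc value was -1.82, without Bud31-vKO library 2 it was -2.35, and in the 2 libraries of each genotype with the most genes detected it was -1.24.

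Other members with means lower in Bud31-vKO overlapped between the genotypes. Stag3 had 2146, 2833 and 5451 reads in wild type libraries and 679, 0 and 2646 reads in Bud31-vKO libraries. Its level in Bud31-vKO library 3, 194 CPM, exceeded that of wild type libraries 1 and 2, 155 and 156 CPM, while library 2 had no read of a gene that was abundant elsewhere. The log2 fold change of Stag3 was -1.36 with a standard error of 1.58, with -0.93 without library 3 of wild type, -0.77 without library 2 of Bud31-vKO and -3.08 without Bud31-vKO library 3. Brdt measured 63.8, 22.9 and 157 CPM against 40.4, 13.4 and 30.9 CPM, a log2 fold change of -1.52 with a standard error of 0.79, which was -0.60 without library 3 of wild type and -1.18 without library 2 of Bud31-vKO. Mlh3 measured 36.4, 20.7 and 66.1 CPM against 2.17, 5.19 and 23.6 CPM, with -1.99 and a standard error of 1.10, and only Bud31-vKO library 3 reached into the wild type range. The Mlh3 value was -1.45 without library 3 of wild type, -1.66 without library 2 of Bud31-vKO and -3.48 without Bud31-vKO library 3. Spo11 measured 4.48, 7.92 and 0.058 CPM against 0.145, 0 and 1.25 CPM, and its log2 fold change of -3.14 had a standard error of 2.38, with -3.70 without library 3 of wild type, -2.55 without library 2 of Bud31-vKO and -5.69 without Bud31-vKO library 3.

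The most abundant members overlapped between the genotypes as well. Tex15 stood at 409, 238 and 271 CPM in wild type libraries, against 143, 61.2 and 336 CPM, a log2 fold change of -0.76 with a standard error of 0.59. The Tex15 value was -0.83 without library 3 of wild type, -0.34 without library 2 of Bud31-vKO and -1.58 without Bud31-vKO library 3. Sycp1 measured 319, 181 and 166 CPM against 273, 41.5 and 247 CPM, so that library 2 alone lay below the wild type range, and its log2 fold change of -0.24 (standard error 0.65) was 0.24 without that library and -0.40 without wild type library 3. Sycp2, at 156, 109 and 183 CPM against 126, 44.0 and 131 CPM, had the same pattern, with -0.57 that became -0.20, or -0.38 without wild type library 3. Smc1b measured 187, 195 and 294 CPM against 105, 109.9 and 248.5 CPM, with -0.54 and a standard error of 0.43. Its value was -0.29 without library 3 of wild type, -0.34 without library 2 of Bud31-vKO and -1.07 without Bud31-vKO library 3. Hormad1 stood at 192, 115 and 188 CPM against 147, 174 and 88.1 CPM, with -0.28 and a standard error of 0.39, or -0.15, -0.48 and -0.05 without those same libraries in turn.

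Values above 0 were found for Syce3, Mei1, Mei4 and Prdm9, at 0.33, 0.11, 0.42 and 2.83 on the log2 scale. Prdm9 had 39, 0 and 72 reads in Bud31-vKO libraries, against 14, 0 and 2 in wild type, and its value had a standard error of 2.49, with 2.41 without library 3 of wild type and 3.42 without library 2 of Bud31-vKO. Mei4 measured 11.9, 56.2 and 1.47 CPM in Bud31-vKO libraries 1 to 3 and turned to -1.36 without library 2. Majin, Terb1 and Terb2 lay at -0.02, -0.04 and -0.03, with standard errors of 2.35, 2.48 and 2.19, so a change of several fold in these telomere genes was not detectable.

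Missing reads were counted by library. No read was found for 11 of the 31 members in Bud31-vKO library 2, where 26.2% of all genes tested had none, and for 3 in wild type library 3, where 21.0% had none. In wild type libraries 1 and 2 and Bud31-vKO libraries 1 and 3, 0, 2, 1 and 3 members had none, against 0.846%, 5.12%, 2.82% and 3.44% of all genes tested. The 11 members absent from Bud31-vKO library 2 are Rec8, Rad21l, Stag3, Spo11, Prdm9, Meiob, Spata22, Msh5, Terb1, Terb2 and Meioc. Spata22, with no read in wild type library 2 and Bud31-vKO libraries 2 and 3, is counted among the members. It was below the filter on low counts, whereas the percentages are of genes that passed it. The part of the low number of genes detected in the members' values was not tested.

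Markers of T and NK cells and of Sertoli cells lay mostly the other way, while peritubular myoid and stromal markers did not. All 6 T and NK cell markers lay above 0 on the log2 scale (median 2.05), and their summed level was 8.60 to 85.4 CPM in wild type libraries and 73.7 to 516 CPM in Bud31-vKO libraries, highest in library 2. Cd3e, which defines T cells, was at 0 in wild type library 3 and Bud31-vKO library 2. Of the 8 Sertoli cell markers tested 7 lay above 0, with a median of 1.38, and the sum over 10 markers was 123 to 408 CPM against 126 to 1607 CPM, highest in Bud31-vKO library 1. Amh, a defining hormone of Sertoli cells, was at 0 in library 2 of both genotypes. By edgeR 0 markers of either list were called, and 1 T and NK cell marker and 0 Sertoli cell markers had an unadjusted p under 0.05. Peritubular myoid and stromal markers, the largest somatic sum, lay below 0 for 3 of 5 (median -0.28). They summed to 5983 to 10270 CPM in wild type libraries against 4729 to 7588 CPM. Of the macrophage markers tested 2 lay below 0 and 2 above, and all Leydig, endothelial and erythroid markers tested lay above. The part of these cell types in the members' lower values was not tested.

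The summed level of the group had a lower mean in Bud31-vKO, with overlap, as did that of germ cell markers, without overlap. The 31 genes together measured 2052, 1514 and 2112 CPM in the 3 wild type libraries, against 1219, 745 and 1629 CPM in the Bud31-vKO libraries. The Bud31-vKO library 3 sum exceeded that of wild type library 2. The means were 1893 ± 329 and 1198 ± 442 CPM (SD, n = 3 each), a ratio of 0.633, which was 0.672 without library 3 of wild type, 0.752 without library 2 of Bud31-vKO and 0.519 without Bud31-vKO library 3. Tex15, Smc1b, Sycp1 and Stag3 made up 50.8% of the wild type sum. The summed level of 9 pan-germ-cell markers, Dazl, Ddx4 and Mael among them, was 3385, 3343 and 2875 CPM, against 1638, 2241 and 2283 CPM in Bud31-vKO. Of these markers Mael, a piRNA pathway protein, had an adjusted p of 0.0453 by DESeq2, and edgeR called 0 of the 9.

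As a share of those germ cell markers, the meiotic genes differed between the genotypes by less than the spread of the libraries. The share was 60.6%, 45.3% and 73.4% in the wild type libraries, against 74.5%, 33.2% and 71.4%, or 59.8 ± 14.1% and 59.7 ± 23.0% (SD, n = 3 each). The Bud31-vKO mean was 72.9% when its library 2 was left out, and in the 2 libraries of each genotype with the most genes detected the means were 53.0% and 72.9%. The germ cell markers are themselves genes that could respond to the deletion, and whether they count germ cells was not tested. Relative to the same markers, 2 of the 30 members tested lay wholly lower in Bud31-vKO, against 1.69% of all genes tested, and 1 wholly higher, against 15.8%. The lower ones were Rec8 and Meioc, at 0.175 to 0.437% against 0 to 0.0840% for Rec8 and at 0.329 to 1.73% against 0 to 0.273% for Meioc, wild type first. The higher one was Mei1, at 0.367 to 0.605% in wild type and 0.611 to 1.24% in Bud31-vKO, and Syce1 and Tex11 overlapped.

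**Figure D5:**
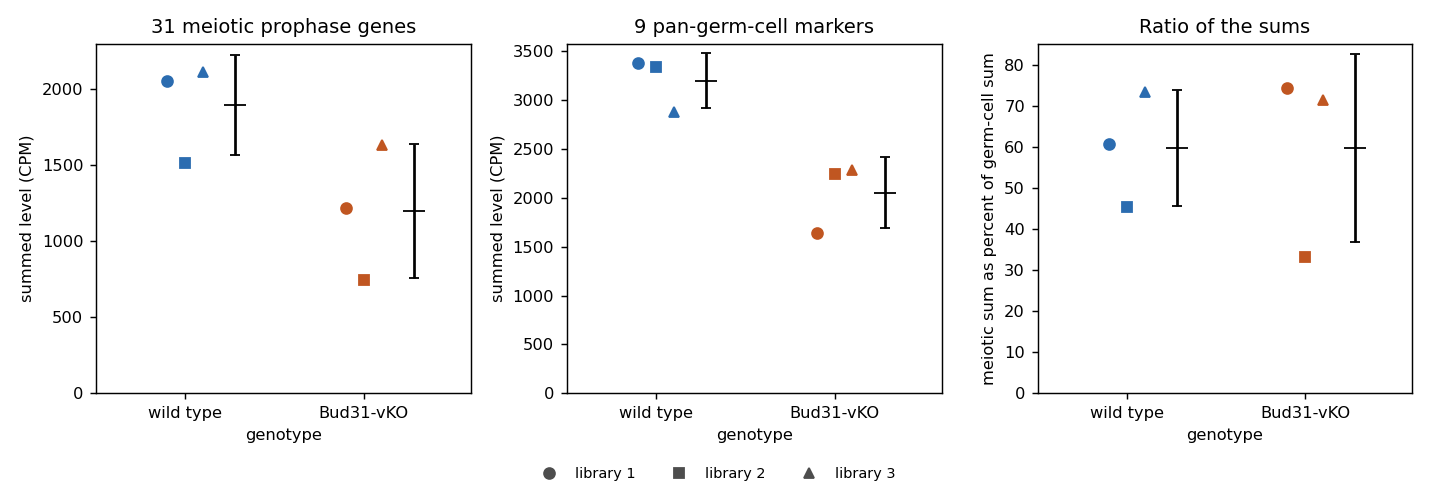
Summed level of the 31 meiotic prophase genes (left) and of 9 pan-germ-cell markers (middle), in CPM, and the first as a percentage of the second (right), with 1 mark per library and the mean ± SD of 3 libraries in black. The left sums overlap between genotypes, the middle sums do not, and the ratio has means of 59.8% and 59.7%.

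Other genes of meiotic prophase, taken as a separate list of 27, were likewise mostly detected. In the wild type libraries 21 of the 27 reached 1 CPM in all 3, led by Fkbp6, a chaperone of the synaptonemal complex and piRNA pathway, and Taf7l, a testis variant of a basal transcription factor. Among the 25 tested, 17 lay below 0 on the log2 scale (median -0.33), and 0 passed edgeR's test, 0 at an unadjusted p under 0.05. As a share of the germ cell markers the 27 genes stood at 64.3%, 73.8% and 76.0% in wild type libraries, against 83.7%, 83.3% and 81.1% in Bud31-vKO libraries. This ratio was thus higher in each Bud31-vKO library, as it was for 15.8% of all genes tested. The sum of the 27 genes itself was lower there, at 1696 ± 282 CPM against 2278 ± 166 CPM in wild type (SD, n = 3 each). Both sums of the ratio rest largely on few genes. In wild type, Fkbp6 and Taf7l had means of 519 and 557 CPM, and Dazl had 1397 CPM of the germ cell markers' 3201 CPM. Trip13, the ATPase that removes HORMA domain proteins from the axis, had -0.80, Taf7l -0.51 and Zcwpw1, a reader of the marks that PRDM9 makes, -0.75, with standard errors of 0.38, 0.29 and 0.47.

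Regulators of meiotic entry were uneven between libraries. Stra8, which retinoic acid induces before meiosis, stood at 65.7, 210.2 and 2.14 CPM in wild type libraries, against 43.1, 38.2 and 61.4 CPM. Meiosin, its partner, stood at 7.30, 4.89 and 263 CPM in wild type libraries, against 4.49, 30.9 and 5.13 CPM. Wild type library 3 thus held the lowest Stra8 and the highest Meiosin of all 6 libraries. It was also the highest library for Brdt, Meioc, Stag3, Smc1b, Rec8, Sycp2, Mlh3, Msh5, Ythdc2 and Spata22. The same library had no read of Rad21l, Meiob or Terb1. Among the wild type libraries it was lowest for Sycp1, Sycp3, Syce1, Syce2, Syce3, Hormad2, Spo11, Dmc1, Tex11 and Terb2 as well. Of the 11 entry regulators tested, 9 lay below 0, among them Dmrt1, which restrains meiotic entry in spermatogonia, at -1.40 with a standard error of 0.47, and Rbm46, an RNA-binding protein, at -1.73 with 0.72. Rara, a retinoic acid receptor, lay at 1.56 (standard error 0.71), with 12.7 to 14.6 CPM in wild type libraries and 32.7 to 47.6 CPM in the others. By edgeR these had unadjusted p of 0.0188, 0.0452 and 0.0613 and adjusted p of 0.9997.

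Subunits of the PRC1.6 repressor were expressed in the same libraries. In the wild type libraries 13 of its 15 listed subunits reached 1 CPM in all 3, against 44.1% of protein-coding genes. Which cells of these bulk samples expressed them was not tested. Mga, its DNA-binding scaffold, measured 238 ± 85.2 CPM against 306 ± 116 CPM in Bud31-vKO, and E2f6, its E2F subunit, 63.0 ± 18.5 and 41.8 ± 16.8 CPM (SD, n = 3 each). Among the 14 tested, 11 lay below 0 on the log2 scale (median -0.44), and 0 passed edgeR's test, 0 at an unadjusted p under 0.05. Tfdp1, the partner of E2F proteins, had the smallest p of the list by edgeR, at -0.81 with a standard error of 0.38 and an adjusted p of 0.9997. Among the somatic paralogs Msh6, a mismatch repair protein, stood at 124, 130.5 and 257.5 CPM in wild type libraries, against 56.6, 29.2 and 48.7 CPM, a log2 fold change of -1.92 (standard error 0.47). Its unadjusted p was 0.0035 and its adjusted p 0.9997 by edgeR, and its exons overlap Fbxo11 on the opposite strand.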

How the data were processed

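The authors deposited unscaled read counts, 1 whole number for each Ensembl gene and library. Per the labels' protocols, Smart-Seq2 was used, and the submitters' processing notes name bcl2fastq and the build mm10. How reads were aligned and counted, and on which strand, is not given in the sources used here. Symbols, positions and merged exon lengths came from GENCODE on GRCm38, and promoter sequences from RefSeq on GRCm38.p6.

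In edgeR 4.0.16, filterByExpr (counts of at least 10, totals of at least 15) left 15240 genes. Libraries were scaled by TMM, and the genotypes compared by the quasi-likelihood F test, with no covariates and Benjamini-Hochberg adjustment at 5%. CPM are over total counts with TMM factors, and TPM over merged exon length. Standard errors are the log2 fold change over the root of F. Alternatives included DESeq2 1.42.0 and limma-voom of limma 3.58.1, in R 4.3.3, with Python 3.11.15 for the rest. An exact permutation test of 3 against 3 cannot go below 0.1 and was not used. All 31 members are named, with up to 3 genes of smallest p from other lists and the somatic paralogs. Other genes, such as Stra8, Meiosin, Fkbp6, Mga and the spermatid genes, were named after their values were seen. The members and lists were chosen with earlier results of these data known. RNA immunoprecipitation profiles were not analysed here. Some somatic paralogs are not reported here.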

Additional observations from a re-analysis of the deposited data

How the results depend on the processing

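Calls over all genes were 0 higher and 0 lower by edgeR, 5 and 2 without a filter on low counts, and 17 and 30 by DESeq2. No member was called in any of the 14 other fits. The members' median ran from -0.81 to -0.42 over the settings that keep all libraries or the 4 with the most genes, and from -1.01 to -0.48 with a library left out. The ratio of the summed level, 0.633, was 0.998 when divided by the pan-germ-cell markers and 1.38 when so divided in 4 libraries (wild type 1 and 2, Bud31-vKO 1 and 3), an alternative added after the data were seen, as was leaving libraries out of the sum. With a replicate block, 25 members lay below 0 with a median of -0.77. Same-numbered libraries' deviations correlated at 0.191, 0.0407 and -0.0756, so the numbers are not taken to pair them, and 2 of the 3 wild type libraries correlated best with their own number. Of 412 single-gene values under other settings, 39 in 13 members turned sign, all without a call in either setting, and the cause was not tested. With the block, Hormad2 had 0.62, Mei4 -0.38 and Terb1 0.61. By limma-voom Hormad2 had 1.66, Mei1 -0.016 and Mei4 -0.50. In the same 4 libraries Sycp1 had 0.068, Mei1 -0.33, Mei4 -0.64, Msh5 0.47, Terb2 0.10 and Ythdc2 0.056. With RLE scaling Majin had 0.051 and Terb2 0.0050, by DESeq2 0.052 and 0.0049, and with library size alone Terb1 had 0.015. With 1 library left out, the values ranged from -0.61 to 0.24 for Sycp1, -0.47 to 0.11 for Sycp3, -0.48 to 0.12 for Syce2, -0.13 to 1.91 for Syce3, -0.38 to 0.38 for Mei1, -1.36 to 1.17 for Mei4, -3.53 to 1.03 for Meiob, -5.66 to 0.84 for Majin, -2.08 to 0.56 for Terb1 and -4.17 to 0.95 for Terb2. Syce3 had 3 reads in wild type library 3 and in Bud31-vKO library 2, at the floor.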
